A study of Mus musculus with 20 samples.

Results

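Crypts of Xiap-/- mice that had been co-housed with wild-type mice were compared with crypts of Xiap-/- mice housed apart, that is, with mice of their own genotype. The comparison rests on 9 of the 20 RNA libraries of the study, 5 from co-housed and 4 from housed-apart Xiap-/- mice, and covers every gene with a mean level of log2 of 10 (3.32) or more in the 20 libraries, 9521 of 23020 in all. It asks what changes in the crypt epithelium of mice lacking Xiap when they share a cage with wild-type mice. The groups were 5 Xiap-/- mice co-housed for 4 weeks, 4 Xiap-/- mice housed apart, 5 wild-type mice co-housed for 4 weeks and 6 wild-type mice housed apart, all of strain C57BL/6 and sampled as small intestinal crypts. The labels name neither the deleted part of Xiap, nor the cages, nor the age of the mice, nor the time of collection. Shared cage, batch of collection and co-housing therefore cannot be told apart, and p-values measure the spread between these mice, taken as independent.

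Crypts are the epithelial pits of the gut wall in which stem cells divide and Paneth cells secrete antimicrobial proteins. Xiap encodes a ubiquitin ligase that restrains caspases and takes part in signalling downstream of NOD2, an intracellular sensor of bacterial cell walls. Mice that share a cage eat each other's droppings and so exchange gut microbes, and epithelial cells answer to microbes with secreted lectins, oxidases and transport of IgA. These libraries hold no measure of the microbes themselves.

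The targeted gene gave signal in all 9 Xiap-/- libraries. Xiap (chromosome X, 42059679 to 42109656) had levels of 6.91, 6.68, 6.66, 6.56 and 6.29 in co-housed Xiap-/- mice, against 6.48, 6.37, 6.43 and 6.25 in housed-apart Xiap-/- mice. These ranges overlap, and the means differed by 0.238 (exact permutation p = 0.0873). Without co-housed replicate 5 the difference was 0.32 (exact permutation p = 0.0286, against 0.107 to 0.196 without any other of these libraries). Wild-type levels were 6.67 ± 0.20 (SD, n = 5) co-housed and 6.81 ± 0.17 (SD, n = 6) apart. Reads came from the 3' end of transcripts, which may lie outside the deleted part, so the level does not check the genotype.

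After co-housing, 14 genes differed in Xiap-/- crypts, 5 higher and 9 lower. The rises were led by the chaperone genes Hspa1b (2.05-fold) and Hsph1 (1.90-fold), followed by the gasdermin gene Gsdmc4 (1.62-fold). The falls were led by the secreted nuclease Dnase1 (to 0.613-fold) and included Cd36, a receptor for fatty acids, Adh4 and Dhrs4, enzymes that handle alcohols and retinoids, and Ltc4s, which makes leukotrienes. The test was limma on the deposited log2 values, and a gene passed at an adjusted p under 0.05. The 14 genes were 0.147% of those tested, the 5 higher ones 0.0525% and the 9 lower ones 0.0945%. An unadjusted p under 0.05 was found for 1072 genes (11.3%), of which 515 were higher (5.41%) and 557 lower (5.85%), where chance gives 476. The values of the groups did not overlap in 536 genes (5.63%), with every co-housed value above every housed-apart value in 252 (2.65%) and below it in 284 (2.98%). All 14 genes were among these 536, and the median difference over all 9521 genes was 0.000373 on the log2 scale.

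**Figure D1:**
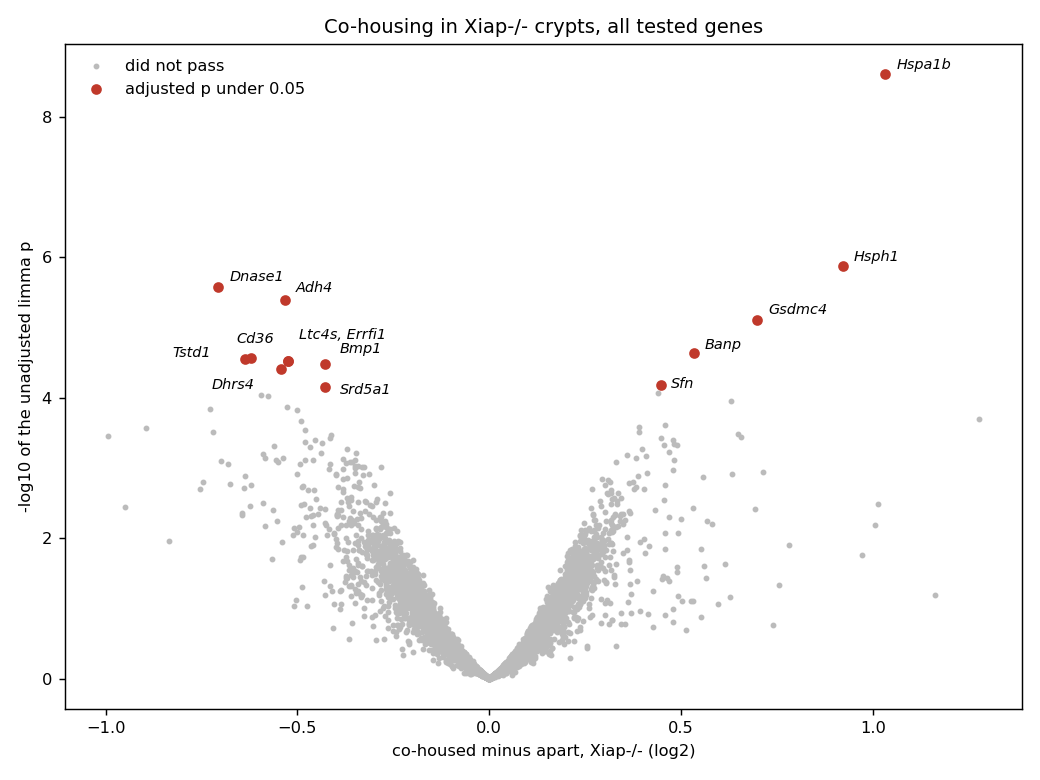
Difference between co-housed and housed-apart Xiap-/- crypts (x axis, log2) against the strength of the evidence (y axis, -log10 of the unadjusted limma p) for 9521 genes, each a point. The 14 genes with an adjusted p under 0.05 are red and named, 5 to the right and 9 to the left, and Hspa1b stands highest.

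The count rested on few libraries. Left out in turn, co-housed Xiap-/- replicates 1, 2, 3 and 4 brought it to 5, 2, 8 and 4 genes, and housed-apart Xiap-/- replicates 1, 2, 3 and 4 to 23, 6, 2 and 6. Leaving out wild-type mice, which enter through the shared estimate of the spread, gave 23, 22 and 64 genes without housed-apart replicates 2, 4 and 5. Hspa1b was the 1 gene that passed in all 20 of these fits. Each fit kept the same 9521 genes, among which Hspa1b stood only through its level in co-housed Xiap-/- mice. Hsph1 passed in 19 (not without housed-apart Xiap-/- replicate 3), Dnase1 and Adh4 in 18 and Gsdmc4 in 16. Cd36 and Ltc4s passed in 14, Banp, Tstd1, Dhrs4, Errfi1 and Bmp1 in 13, Srd5a1 in 7 and Sfn in 5.

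Sequencing depth is not given by normalized values, and a stand-in for it moved with the groups. The share of rare genes that stood above their own plateau was 8.77% ± 2.77 (SD, n = 5) in co-housed and 17.1% ± 10.5 (SD, n = 4) in housed-apart Xiap-/- libraries, with housed-apart replicate 2 highest at 32.1% (exact permutation p = 0.0635, where the smallest that this design allows is 0.00794). The difference of -8.33 percentage points was -3.31 without that library. The level of the plateau itself also differed (exact permutation p = 0.0238, adjusted p = 0.0476 over these 2 measures). With the share as a covariate, 1 gene passed, Hspa1b (1.03 ± 0.15 SE). The other 13 kept their direction without passing, with Hsph1 at 0.89 and Dnase1 at -0.65. The part of depth in the result was not tested beyond this covariate.

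Hspa1b and Hsph1 belong to the heat shock response, in which the transcription factor Hsf1 binds repeats of the pentamer nGAAn in promoters and chaperones hold or refold damaged proteins. Start-site regions are shown for Hspa1b, Hsph1 and Chordc1, a cochaperone, from the 6 chaperone genes with every co-housed value above every housed-apart one. The region of Hspa1a is shown because that gene is the near-identical neighbour of Hspa1b. No region was available for Hsp90aa1 or Hspa8, also among the 6. Hsp90aa1 had a larger difference than Chordc1. Each sequence runs 5′ to 3′ on the gene's own strand from 250 bases before the start site to 30 bases after it (RefSeq, build GRCm38.p6). Capitals mark pairs of inverted pentamers, written GAANNTTC or TTCNNGAA, both of which read the same on the opposite strand.

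Hspa1b, chr17:34959209-34959488, minus strand: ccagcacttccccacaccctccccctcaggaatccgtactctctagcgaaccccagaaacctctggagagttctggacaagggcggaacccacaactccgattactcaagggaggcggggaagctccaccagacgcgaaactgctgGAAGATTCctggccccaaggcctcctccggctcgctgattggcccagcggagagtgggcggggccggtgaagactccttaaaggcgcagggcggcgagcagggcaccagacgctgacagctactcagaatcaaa

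Hspa1a, chr17:34972127-34972406, minus strand: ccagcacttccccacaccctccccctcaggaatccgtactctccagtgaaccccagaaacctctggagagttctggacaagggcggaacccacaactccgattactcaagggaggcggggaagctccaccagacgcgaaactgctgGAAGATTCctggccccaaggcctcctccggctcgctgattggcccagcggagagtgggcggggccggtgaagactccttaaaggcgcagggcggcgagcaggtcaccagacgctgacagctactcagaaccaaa

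Hsph1, chr5:149636307-149636586, minus strand, first of its start sites in the table: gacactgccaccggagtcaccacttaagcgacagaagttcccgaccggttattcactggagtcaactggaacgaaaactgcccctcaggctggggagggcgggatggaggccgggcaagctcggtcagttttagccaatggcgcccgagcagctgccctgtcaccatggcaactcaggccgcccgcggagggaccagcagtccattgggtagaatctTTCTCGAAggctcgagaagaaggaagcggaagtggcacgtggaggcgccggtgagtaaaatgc

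Chordc1, chr9:18292017-18292296, plus strand: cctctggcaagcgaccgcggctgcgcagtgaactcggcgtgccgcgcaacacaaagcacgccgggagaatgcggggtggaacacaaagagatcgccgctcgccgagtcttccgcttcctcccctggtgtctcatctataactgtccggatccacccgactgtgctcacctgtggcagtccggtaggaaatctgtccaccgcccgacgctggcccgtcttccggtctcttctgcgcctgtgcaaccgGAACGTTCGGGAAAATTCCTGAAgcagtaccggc

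The Hspa1b and Hspa1a windows differ at 4 of 280 positions and share GAAGATTC beginning 104 bases upstream of the start site. Hsph1 holds TTCTCGAA 33 bases upstream, and Chordc1 holds 4 matches that overlap each other around the start site. Such a pair occurs in 4658 of 32851 windows of the same length (14.2%), counted per start site. Of the 22 tested genes of the chaperone list, 17 have an entry in the table and 10 hold a pair in any of their windows. A gene can have several windows, so this count of genes cannot be set against the share of windows. Dnaja1, a chaperone gene whose groups also did not overlap, is not printed. It holds a pair in the first of its windows and none in the others. A match is a description of the letters and not evidence of binding.

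Hspa1b, an inducible chaperone of the Hsp70 family (chromosome 17, 34956436 to 34959238), had levels of 4.47, 4.30, 4.35, 4.00 and 5.00 in co-housed Xiap-/- mice, against 3.25, 3.33, 3.33 and 3.64 in housed-apart Xiap-/- mice. Every co-housed value lay above every housed-apart one. The rise was 1.03 ± 0.12 (SE, adjusted p = 2.33e-05). In wild-type mice the level was 3.19 ± 0.06 (SD, n = 5) co-housed and 3.25 ± 0.13 (SD, n = 6) apart, a difference of -0.06 ± 0.11. Hspa1b was thus high in co-housed Xiap-/- mice alone of the 4 groups. The difference between the housing effects of the genotypes was 1.10 ± 0.17 (adjusted p = 0.00254), and Hspa1b was the 1 gene of 9521 (0.0105%) to pass that test, with 671 at an unadjusted p under 0.05 (7.05%). Its mean over the other 15 libraries was 3.27, under the minimum of 3.32, so it was tested only because of the group in which it was high.

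Hspa1a, whose transcript is nearly the same, was under the minimum and was not tested, and it was chosen after its values were seen. It had levels of 3.89, 3.76, 4.45, 3.39 and 4.52 in co-housed Xiap-/- mice, against 3.18, 3.13, 3.06 and 3.39 in housed-apart Xiap-/- mice. The lowest co-housed value equalled the highest housed-apart value. How reads were divided between this pair of genes is not given in the sources used here, so values of either may include reads of the other.

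Hsph1, a large chaperone that exchanges nucleotide on Hsp70 (chromosome 5, 149614287 to 149636376), had levels of 7.77, 8.05, 7.49, 7.28 and 7.65 in co-housed Xiap-/- mice, against 6.71, 6.93, 6.52 and 6.74 in housed-apart Xiap-/- mice. The groups did not overlap, and the rise was 0.92 ± 0.15 (SE, adjusted p = 0.00632). In wild-type mice Hsph1 lay at 7.12 ± 0.22 (SD, n = 5) co-housed and 6.96 ± 0.29 (SD, n = 6) apart, so the housed-apart Xiap-/- mice had the lowest mean of the 4 groups and the co-housed ones the highest. The housing effects of the genotypes differed by 0.76 ± 0.20, which did not pass (adjusted p = 0.429).

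Of the 22 tested members of the chaperone list, 2 rose (Hspa1b and Hsph1) and 0 fell. At an unadjusted p under 0.05, 8 were higher and 0 lower, 18 had positive differences, and the median was 0.150 in Xiap-/- mice and 0.0365 in wild-type mice. Over all tested genes 0.0525% rose, 5.41% were higher and 5.85% lower at an unadjusted p under 0.05, and 50.2% had positive differences. Hspa1b is counted in the list although only its high group brought it over the minimum. The next members, chosen after their values were seen, did not pass. Hsp90aa1, the inducible Hsp90, had a difference of 0.48 ± 0.12 (adjusted p = 0.103). Chordc1, a partner of Hsp90, had levels of 6.76, 6.81, 6.63, 6.76 and 6.5 in co-housed Xiap-/- mice, against 6.34, 6.41, 6.35 and 6.11 in housed-apart Xiap-/- mice, without overlap (difference 0.39 ± 0.10, adjusted p = 0.100). The constitutive Hspa8 had a difference of 0.34 ± 0.10 (adjusted p = 0.172).

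**Figure D2:**
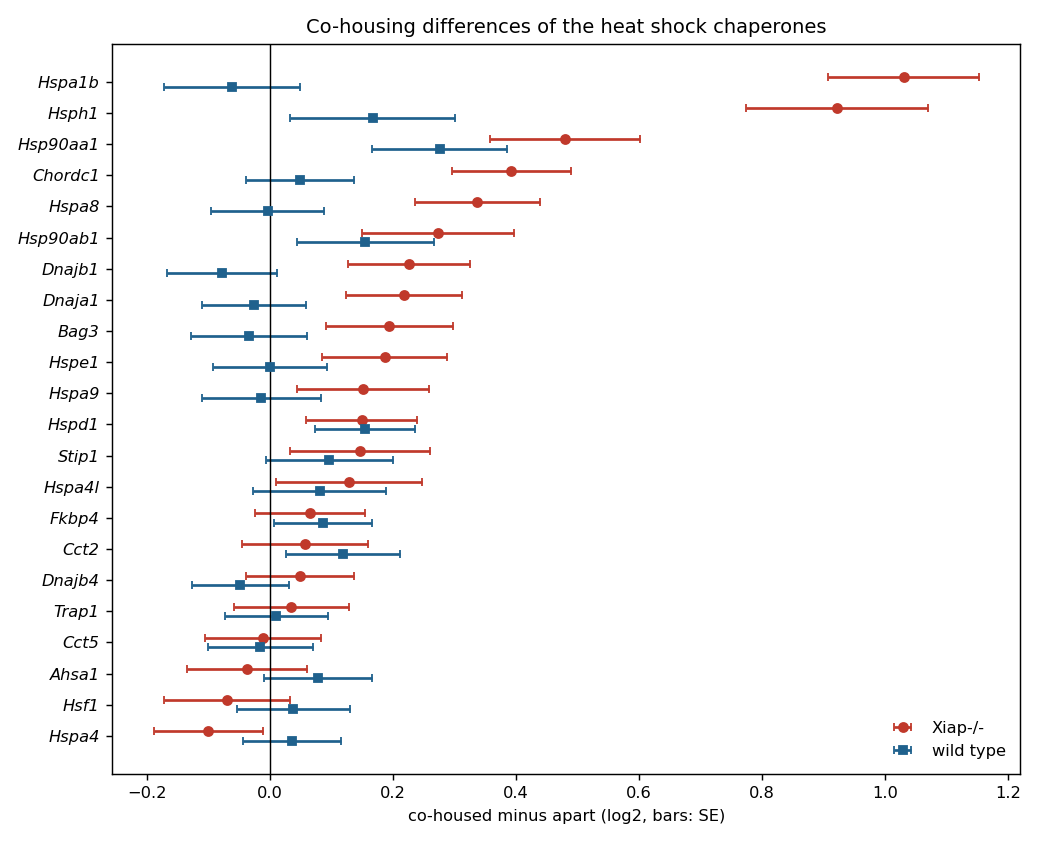
Co-housed minus housed-apart difference (x axis, log2, bars are the SE from the model) of the 22 tested chaperone genes in Xiap-/- mice (red circles) and wild-type mice (blue squares). Hspa1b at 1.03 and Hsph1 at 0.92 stand to the right in Xiap-/- mice, against -0.06 and 0.17 in wild-type mice.

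Gsdmc4 encodes a gasdermin of the C family, proteins of the gut epithelium that form membrane pores once cleaved (chromosome 15, 63891264 to 63912297). Its levels were 5.96, 6.18, 5.93, 6.51 and 6.21 in co-housed Xiap-/- mice, against 5.72, 5.30, 5.21 and 5.61 in housed-apart Xiap-/- mice. Every co-housed value was the higher one, and the rise was 0.70 ± 0.13 (SE, adjusted p = 0.0146). Wild-type means were 6.09 ± 0.23 (SD, n = 5) co-housed and 5.93 ± 0.20 (SD, n = 6) apart, so the housed-apart Xiap-/- mice stood lowest of the 4 groups. Gsdmc2, its neighbour in sequence, lay near the minimum at 3.62 ± 0.23 in co-housed and 3.16 ± 0.07 in housed-apart Xiap-/- mice, a difference of 0.46 ± 0.12 that did not pass (adjusted p = 0.106; chosen after its values were seen). Reads of such related genes can be shared between them. Of 12 tested NOD2, inflammasome and gasdermin genes, 1 rose (Gsdmc4) and 0 fell, 5 were higher and 0 lower at an unadjusted p under 0.05, and the median was 0.161. Among all tested genes 0.0525% rose, and 5.41% were higher at an unadjusted p under 0.05.

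Banp, a nuclear protein that binds DNA (chromosome 8, 121949750 to 122029258), had levels of 5.23, 5.26, 5.06, 5.04 and 4.94 in co-housed Xiap-/- mice, against 4.24, 4.62, 4.78 and 4.66 in housed-apart Xiap-/- mice. All co-housed values were higher, with a rise of 0.53 ± 0.11 (SE, adjusted p = 0.0283). Both wild-type groups, at 4.57 ± 0.18 (SD, n = 5) co-housed and 4.59 ± 0.13 (SD, n = 6) apart, resembled the housed-apart Xiap-/- mice. The annotation places 4 other genes over Banp on one strand or the other, whose reads cannot be told apart from its own here. Sfn, an epithelial adaptor that binds phosphorylated proteins (chromosome 4, 133600556 to 133602168), lay between 8.15 and 8.41 in co-housed Xiap-/- mice, against 7.62 to 7.86 in housed-apart Xiap-/- mice. The rise was 0.45 ± 0.10 (SE, adjusted p = 0.0472), and the wild-type means of 8.12 and 8.14 were close to the co-housed Xiap-/- mean of 8.24.

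Dnase1, a secreted enzyme that cuts extracellular DNA (chromosome 16, 4036942 to 4040024), fell most of the genes that passed. Its levels were 8.79, 8.70, 8.86, 8.98 and 8.92 in co-housed Xiap-/- mice, against 9.23, 9.67, 9.86 and 9.47 in housed-apart Xiap-/- mice. Every co-housed value was the lower one, and the difference was -0.71 ± 0.12 (SE, adjusted p = 0.00829). In wild-type mice the level was 8.78 ± 0.06 (SD, n = 5) co-housed and 9.30 ± 0.29 (SD, n = 6) apart, a difference of -0.53 ± 0.11 that did not pass (adjusted p = 0.09). The housing effects of the genotypes differed by -0.18 ± 0.17, which did not pass either (adjusted p = 0.877). On the opposite strand the gene overlaps Trap1, whose reads cannot be told apart without knowledge of the strand.

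Other genes that fell take up fatty acids or act on alcohols, steroids and sulfur compounds. Cd36, which takes up long-chain fatty acids (chromosome 5, 17781690 to 17888801), had levels of 5.94, 5.71, 5.84, 5.69 and 6.02 in co-housed Xiap-/- mice, against 6.38, 6.53, 6.67 and 6.28 in housed-apart Xiap-/- mice. No value of one group reached the other, and the difference was -0.62 ± 0.13 (SE, adjusted p = 0.0283). Adh4, an alcohol dehydrogenase that also oxidizes retinol (chromosome 3, 138415466 to 138430892), had levels of 4.29, 4.29, 4.51, 4.35 and 4.46 in co-housed Xiap-/- mice, against 4.71, 4.91, 5.12 and 4.92 in housed-apart Xiap-/- mice. The difference was -0.53 ± 0.10 (SE, adjusted p = 0.00951), again without overlap. Dhrs4, a reductase of carbonyls and retinoids (chromosome 14, 55478758 to 55490340), lay between 7.13 and 7.36 in co-housed Xiap-/- mice, against 7.51 to 8.03 in housed-apart Xiap-/- mice. It differed by -0.54 ± 0.11 (SE, adjusted p = 0.0311).

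Tstd1, a small sulfurtransferase-like protein (chromosome 1, 171418872 to 171420352), lay between 6.99 and 7.63 in co-housed Xiap-/- mice, against 7.80 to 8.20 in housed-apart Xiap-/- mice. The difference was -0.64 ± 0.13 (SE, adjusted p = 0.0283), and Tstd1 overlaps Usf1 on the same strand, so reads may belong to either. Srd5a1, a steroid reductase (chromosome 13, 69573449 to 69611442), lay between 4.39 and 4.71 in co-housed Xiap-/- mice, against 4.88 to 5.03 in housed-apart Xiap-/- mice. It differed by -0.43 ± 0.09 (SE, adjusted p = 0.0472) and overlaps Nsun2.

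The other 3 falls were in signalling and matrix genes. Errfi1, a feedback inhibitor of the EGF receptor (chromosome 4, 150853919 to 150868892), had levels of 5.22, 4.80, 5.27, 5.27 and 5.14 in co-housed Xiap-/- mice, against 5.51, 5.70, 5.86 and 5.58 in housed-apart Xiap-/- mice. It differed by -0.52 ± 0.11 (SE, adjusted p = 0.0283), the 1 of 13 tested genes of EGF receptor signalling that passed, and shares its position with a gene on the opposite strand. Ltc4s, a leukotriene-forming synthase found in tuft cells (chromosome 11, 50236461 to 50238616), had levels of 4.71, 4.70, 4.97, 4.85 and 4.86 in co-housed Xiap-/- mice, against 5.21, 5.22, 5.64 and 5.30 in housed-apart Xiap-/- mice. It differed by -0.52 ± 0.11 (SE, adjusted p = 0.0283), and it too overlaps a gene on the opposite strand. Of 9 tested tuft cell genes Ltc4s was the 1 that passed, and 8 had negative differences. Over all tested genes 0.0945% fell and 50.2% had positive differences, the shares to set beside these counts and that of Errfi1. Bmp1, a protease that processes procollagen (chromosome 14, 70474558 to 70520234), lay between 4.47 and 4.71 in co-housed Xiap-/- mice, against 4.85 to 5.06 in housed-apart Xiap-/- mice, and differed by -0.43 ± 0.09 (SE, adjusted p = 0.0283).

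**Figure D3:**
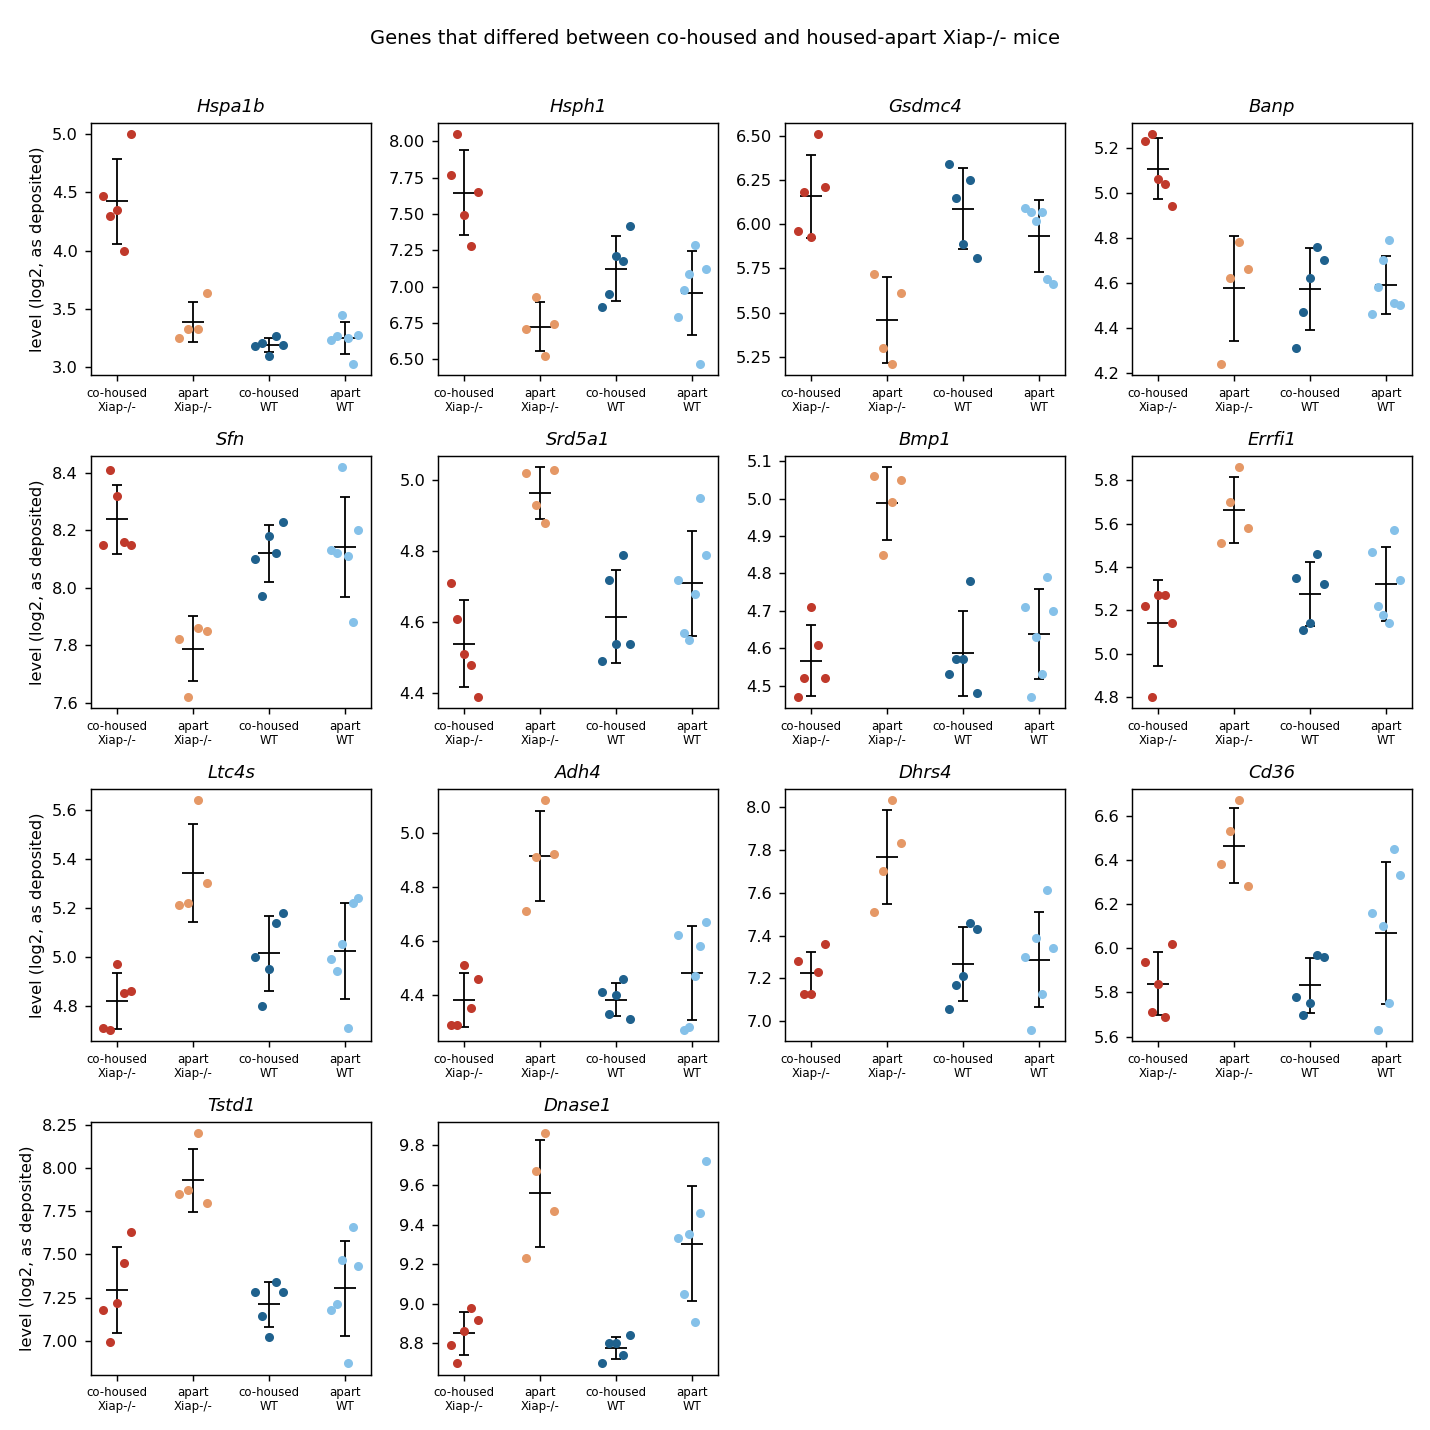
Level of each of the 14 genes (y axis, log2 as deposited) in the 4 groups, with 1 point per mouse and bars for the mean ± SD. In the 5 upper genes the co-housed Xiap-/- points lie above, and in the 9 others below, all housed-apart Xiap-/- points, as for Dnase1 with 8.70 to 8.98 against 9.23 to 9.86.

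Set beside the wild-type mice, the 9 genes that fell had a pattern in common. In all 9 the housed-apart Xiap-/- mean was above both wild-type means, and the co-housed Xiap-/- mean was within 0.2 of the co-housed wild-type mean. The housed-apart libraries enter both differences, so this is a description and not separate evidence. The pattern holds for means and not for every mouse. Housed-apart wild-type replicate 5 lay inside the housed-apart Xiap-/- range for Dnase1 (9.46), Cd36 (6.45), Dhrs4 (7.61), Errfi1 (5.57), Ltc4s (5.22) and Srd5a1 (4.95). For Tstd1, Adh4 and Bmp1 every wild-type value lay below that range. In wild-type mice co-housing gave 0 genes past the threshold by limma (smallest adjusted p = 0.0612), with 969 at an unadjusted p under 0.05 (10.2%). Of the 14 genes, 11 had the same sign in wild-type mice, where 57.8% of all tested genes did, 13 had a wild-type difference under 0.25 in size, and 2 had an unadjusted p under 0.05 there. Of the 14, 1 passed the test of the difference between genotypes, Hspa1b, which was tested only because of its high level in co-housed Xiap-/- mice, and 13 had an unadjusted p under 0.05 in it. Such a p was found for 7.05% of all tested genes. The difference by which the 14 were chosen is part of this test, so their count is not separate evidence. For the 13 genes other than Hspa1b, a difference between the genotypes in the effect of co-housing is not shown. For Hspa1b the test is not independent support, since the gene entered it only through its high group.

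Just short of the threshold stood the water channel Aqp8 and the alcohol dehydrogenase Adh1. Aqp8 had levels of 4.53, 4.15, 4.21, 4.49 and 4.38 in co-housed Xiap-/- mice, against 4.64, 4.79, 5.41 and 4.95 in housed-apart Xiap-/- mice. The groups did not overlap, and the difference of -0.60 ± 0.13 did not pass (adjusted p = 0.0527). Adh1 had a difference of -0.58 ± 0.13 (adjusted p = 0.0527).

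Genes that epithelial cells raise on contact with microbes had some of the largest differences, and none of them passed in the model used here. Under 9 other settings Duox2 passed in 5, Reg3a in 4 and Reg3g, Reg3b, Duoxa2 and Pigr in 3 each. Some of these settings let many more genes pass than the 14 of the model used here. The counts were 169 with only the Xiap-/- groups, 224 with array quality weights and 189 with the replicate block. Of 21 tested members, 10 were higher and 2 lower at an unadjusted p under 0.05, 16 had positive differences, and the median was 0.267 in Xiap-/- mice and 0.0894 in wild-type mice. In 7 members every co-housed Xiap-/- value was above, and in 1 below, every housed-apart one. Among all tested genes this was so in 2.65% (above) and 2.98% (below). At an unadjusted p under 0.05, 5.41% of all tested genes were higher and 5.85% lower. Duox2, the oxidase that releases peroxide into the gut lumen, had levels of 5.86, 6.29, 6.67, 6.31 and 5.93 in co-housed Xiap-/- mice, against 5.12, 4.88, 4.78 and 4.96 in housed-apart Xiap-/- mice. These groups stood well apart, and the difference was 1.28 ± 0.27 (SE, adjusted p = 0.0860). Its housed-apart wild-type values spread most of the 4 groups, at 6.01 ± 0.65 (SD, n = 6), and that spread enters the error. Replicates 5 and 6 of that group lay at 5.18 and 5.19, and the others at 6.23 to 6.64. Co-housed wild-type mice were at 6.48 ± 0.18 (SD, n = 5). The maturation factor Duoxa2 had a difference of 1.01 ± 0.30 (adjusted p = 0.208). Duox2, Duoxa2 and Reg3a were chosen after their values were seen.

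The Reg3 lectins, which kill or bind gut bacteria, had differences of both signs, and none passed. Reg3g (chromosome 6, 78466269 to 78468872) had levels of 12.12, 12.77, 12.76, 12.26 and 12.19 in co-housed Xiap-/- mice, against 11.40, 11.13, 11.81 and 11.31 in housed-apart Xiap-/- mice. The groups did not overlap, and the difference was 1.01 ± 0.33 (SE, adjusted p = 0.267). Reg3b had levels of 12.52, 13.31, 13.15, 12.86 and 12.70 in co-housed Xiap-/- mice, against 11.91, 11.97, 12.59 and 12.02 in housed-apart Xiap-/- mice, where replicate 3 overlapped the co-housed range (difference 0.78 ± 0.28, adjusted p = 0.321). Reg3a had the opposite sign. It lay at 8.27, 7.98, 8.48, 8.40 and 8.80 in co-housed Xiap-/- mice, against 9.13, 9.41, 9.62 and 9.34 in housed-apart Xiap-/- mice (difference -0.99 ± 0.23, adjusted p = 0.101).

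Pigr, which carries IgA across the epithelium, had levels of 12.66, 12.69, 12.68, 12.71 and 12.48 in co-housed Xiap-/- mice, against 12.36, 12.08, 12.15 and 12.15 in housed-apart Xiap-/- mice. The groups did not overlap, and the difference was 0.46 ± 0.13 (adjusted p = 0.158). Ccl28, a chemokine that attracts IgA-secreting cells, had a difference of 0.46 ± 0.11 (adjusted p = 0.0957; chosen after its values were seen). Beside these, 4 of 14 B and plasma cell markers were over the minimum, all 4 with positive differences and none passing (median 0.416). Their summed level ran from 6.44 to 7.27 in co-housed and from 6.35 to 6.59 in housed-apart Xiap-/- mice, and Igha had a mean of 5.17 ± 0.43 (SD, n = 5) co-housed and 4.62 ± 0.11 (SD, n = 4) apart. The part of these cells in the differences of Pigr and Ccl28 was not tested. In bulk RNA, fewer cells of a type and less RNA per cell cannot be told apart, here and in all that follows.

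Of 23 tested glutathione, peroxidase and NRF2 genes 0 passed, and 2 were higher and 1 lower at an unadjusted p under 0.05. The shares over all tested genes were 5.41% higher and 5.85% lower. The enzymes Gpx2 and Gsr of that list were chosen after their values were seen. Gpx2, the glutathione peroxidase of the gut, lay at 9.63, 10.20, 10.08, 9.90 and 9.82 in co-housed Xiap-/- mice, against 9.38, 9.08, 9.17 and 9.22 in housed-apart Xiap-/- mice. Co-housed values were all higher, and the difference of 0.71 ± 0.19 did not pass (adjusted p = 0.136). Glutathione reductase, Gsr, had a difference of 0.49 ± 0.13 (adjusted p = 0.106).

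**Figure D4:**
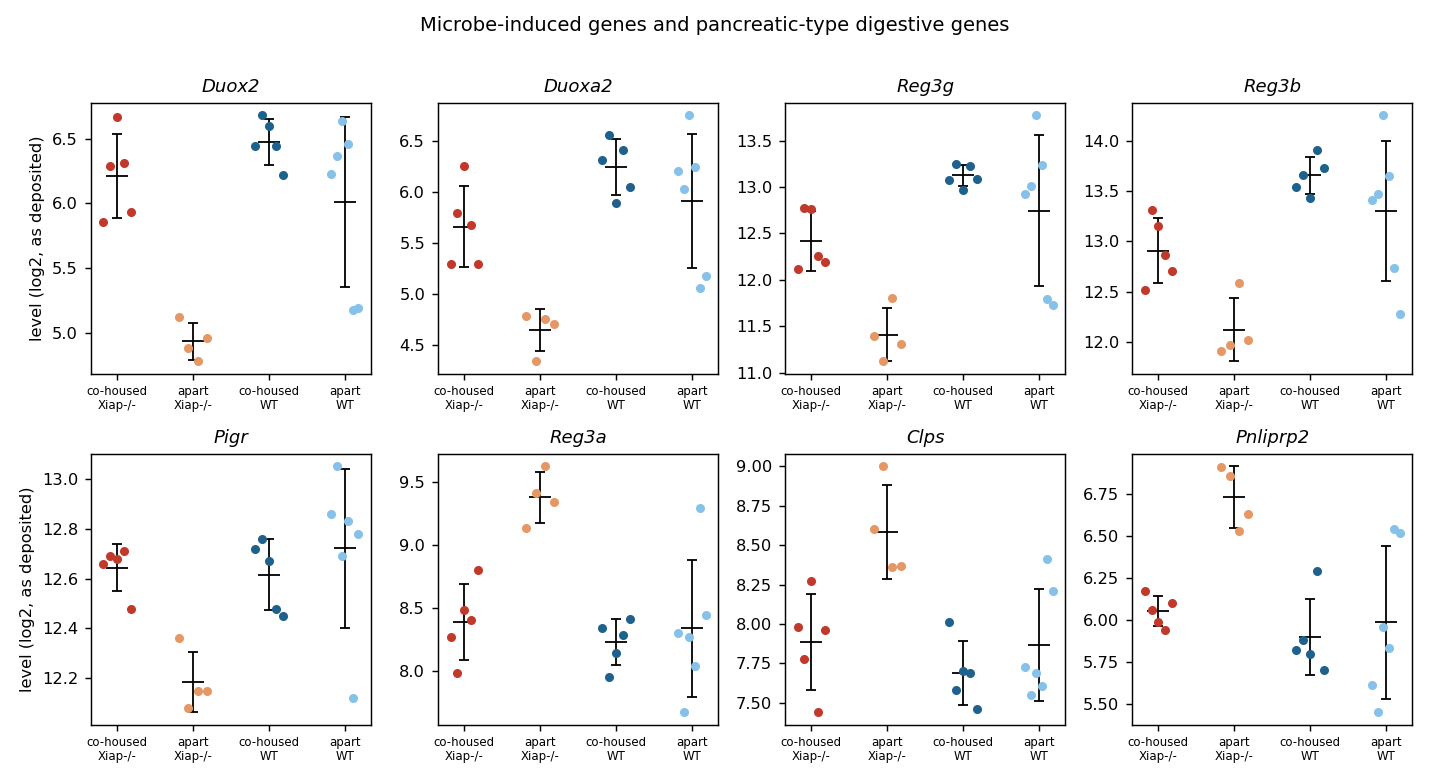
Level (y axis, log2 as deposited) of 6 genes of the microbe-induced list and 2 digestive genes in the 4 groups, with 1 point per mouse and bars for the mean ± SD. Duox2, Duoxa2, Reg3g and Pigr lie higher, and Reg3a, Clps and Pnliprp2 lower, in every co-housed than in every housed-apart Xiap-/- mouse, and none of the 8 passed.

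Defence genes of Paneth cells did not pass, and most Paneth cell products had negative differences. The alpha-defensin Defa24, the most abundant of them, had levels between 13.80 and 14.52 in co-housed Xiap-/- mice, against 14.08 to 14.46 in housed-apart Xiap-/- mice (difference -0.01 ± 0.14, adjusted p = 0.991). Lysozyme, Lyz1, differed by -0.19 ± 0.13, the ribonuclease Ang4 by -0.36 ± 0.15 and the defensin-processing protease Mmp7 by -0.02 ± 0.19, and these ranges overlapped. The signs of Defa24 and Mmp7 changed under some settings. Of 19 tested Paneth cell products 0 passed, 0 were higher and 4 lower at an unadjusted p under 0.05, 14 had negative differences, and the median was -0.107. Among all tested genes 5.41% were higher and 5.85% lower at such a p. The cytokine Tnf was under the minimum, at 0.84 ± 0.09 in co-housed and 0.80 ± 0.05 in housed-apart Xiap-/- mice, and was not tested.

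The lipid-digesting proteins of the crypt did not pass but separated the groups. Clps, the colipase that anchors lipase to fat droplets, had levels of 7.98, 7.78, 8.27, 7.44 and 7.96 in co-housed Xiap-/- mice, against 8.60, 9.0, 8.36 and 8.37 in housed-apart Xiap-/- mice (difference -0.70 ± 0.18, adjusted p = 0.119). Pnliprp2, a lipase-related enzyme, had levels of 6.17, 6.06, 5.99, 5.94 and 6.10 in co-housed Xiap-/- mice, against 6.91, 6.86, 6.53 and 6.63 in housed-apart Xiap-/- mice (difference -0.68 ± 0.18, adjusted p = 0.121). Neither gene overlapped between the groups, and 2.98% of all tested genes lay wholly below in this way. In wild-type mice the differences were -0.18 for Clps and -0.09 for Pnliprp2. The acinar marker Cela1, the 1 of 11 such markers over the minimum, also lay lower, at 4.83 ± 0.12 (SD, n = 5) in co-housed and 5.21 ± 0.24 (SD, n = 4) in housed-apart Xiap-/- mice. The summed level of the acinar markers ran from 4.93 to 5.17 in co-housed and from 5.17 to 5.64 in housed-apart Xiap-/- mice, and its part in these differences was not tested.

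Lists of drug, fatty acid and retinoid metabolism and of the brush border had negative medians, and 1 gene of these lists, Cd36, passed. Over all tested genes 50.2% of differences were positive, and at an unadjusted p under 0.05, 5.41% were higher and 5.85% lower. Of 42 genes of drug and xenobiotic metabolism 0 passed, 21 were lower and 0 higher at an unadjusted p under 0.05, and 38 had negative differences (median -0.331, and -0.170 in wild-type mice). Of 27 PPAR targets and fatty acid oxidation genes 1 fell (Cd36), 11 were lower and 0 higher at an unadjusted p under 0.05, and the median was -0.233 (-0.0514 in wild-type mice). Of 11 retinoid genes 0 passed, 7 were lower at an unadjusted p under 0.05, and the median was -0.262 (-0.141 in wild-type mice). Adh4 and Dhrs4 are not in that list. Of 25 brush-border hydrolases and transporters 0 passed, 8 were lower at an unadjusted p under 0.05, and the median was -0.240, nearly that of -0.237 in wild-type mice.

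The members of these lists given next did not pass and, except for Rbp2, were chosen after their values were seen. The retinaldehyde dehydrogenase Aldh1a1 had levels of 8.52, 7.97, 8.57, 8.21 and 8.87 in co-housed Xiap-/- mice, against 9.14, 9.01, 9.31 and 9.16 in housed-apart Xiap-/- mice (difference -0.73 ± 0.16, adjusted p = 0.0673). Rbp2, which carries retinol inside absorptive cells, differed by -0.46 ± 0.12 (adjusted p = 0.119) and Retsat, a retinol saturase, by -0.68 ± 0.19 (adjusted p = 0.158). The drug oxidase Cyp2j6 differed by -0.64 ± 0.17 (adjusted p = 0.136), the sulfotransferase Sult1b1 by -0.40 ± 0.11 (adjusted p = 0.136) and the export pump Abcc2 by -0.48 ± 0.13 (adjusted p = 0.119). Hadha, an enzyme of mitochondrial fatty acid oxidation, differed by -0.36 ± 0.10 (adjusted p = 0.119). In 5 retinoid, 9 drug metabolism and 6 PPAR genes every co-housed value lay below every housed-apart one, and in 0 genes of these lists above it. Among all tested genes this was so in 2.98% (below) and 2.65% (above).

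Of 16 glutathione transferases 0 passed, 8 were lower at an unadjusted p under 0.05 and 14 had negative differences (median -0.268). Of 17 apolipoprotein and chylomicron genes 1 fell (Cd36, which is in both lists), 8 were lower at an unadjusted p under 0.05 and 16 had negative differences (median -0.209). Of 17 enteroendocrine genes 0 passed, 1 was higher and 4 lower at an unadjusted p under 0.05, and 15 had negative differences (median -0.184). Among all tested genes 5.41% were higher and 5.85% lower at such a p, and 50.2% had positive differences. Reg4, a lectin of enteroendocrine and other secretory cells, had levels of 7.97, 7.99, 7.81, 7.67 and 8.13 in co-housed Xiap-/- mice, against 8.37, 8.75, 8.41 and 8.37 in housed-apart Xiap-/- mice (difference -0.56 ± 0.14, adjusted p = 0.107). The mitochondrial copper chaperone Sco2, chosen after its values were seen, had levels of 7.05, 7.31, 7.17, 7.15 and 7.93 in co-housed Xiap-/- mice, against 8.02, 7.99, 8.68 and 8.17 in housed-apart Xiap-/- mice (difference -0.90 ± 0.20, adjusted p = 0.0978). For both genes the groups did not overlap, as in 5.63% of all tested genes.

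Other lists had positive medians. All 6 tested MHC class II genes had positive differences (median 0.503) and none passed, while their median in wild-type mice was -0.232. The 4 B and plasma cell markers over the minimum also had positive differences in Xiap-/- mice (median 0.416) and a median of -0.150 in wild-type mice. The summed level of the 14 such markers in the files was 6.44 to 7.27 in co-housed and 6.35 to 6.59 in housed-apart Xiap-/- mice, and their part in the MHC class II differences was not tested. H2-Aa, chosen after its values were seen, had levels of 8.88, 8.27, 8.66, 8.91 and 8.49 in co-housed Xiap-/- mice, against 7.68, 7.80, 7.79 and 8.28 in housed-apart Xiap-/- mice (difference 0.75 ± 0.35, adjusted p = 0.432). All 10 mitochondrially encoded genes had positive differences (median 0.410, and 0.249 in wild-type mice). Of these 5 were higher at an unadjusted p under 0.05, with 0 passing and 0 without overlap between the groups. Of 36 DNA replication and mitosis genes 30 had positive differences (median 0.0895, and 0.049 in wild-type mice), with 6 higher at an unadjusted p under 0.05 and 0 passing. Of 24 cholesterol synthesis genes 18 had positive differences (median 0.0731, and -0.00926 in wild-type mice), with 4 higher, 0 lower and 0 passing on the same counts. Of 63 cytosolic ribosomal protein genes 46 had positive differences (median 0.0718, and -0.0953 in wild-type mice), with 7 higher, 0 lower and 0 passing. Among all tested genes 5.41% were higher at an unadjusted p under 0.05, and 50.2% had positive differences. Of the 49 lists, 6 had a passing member and 43 had none.

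**Figure D5:**
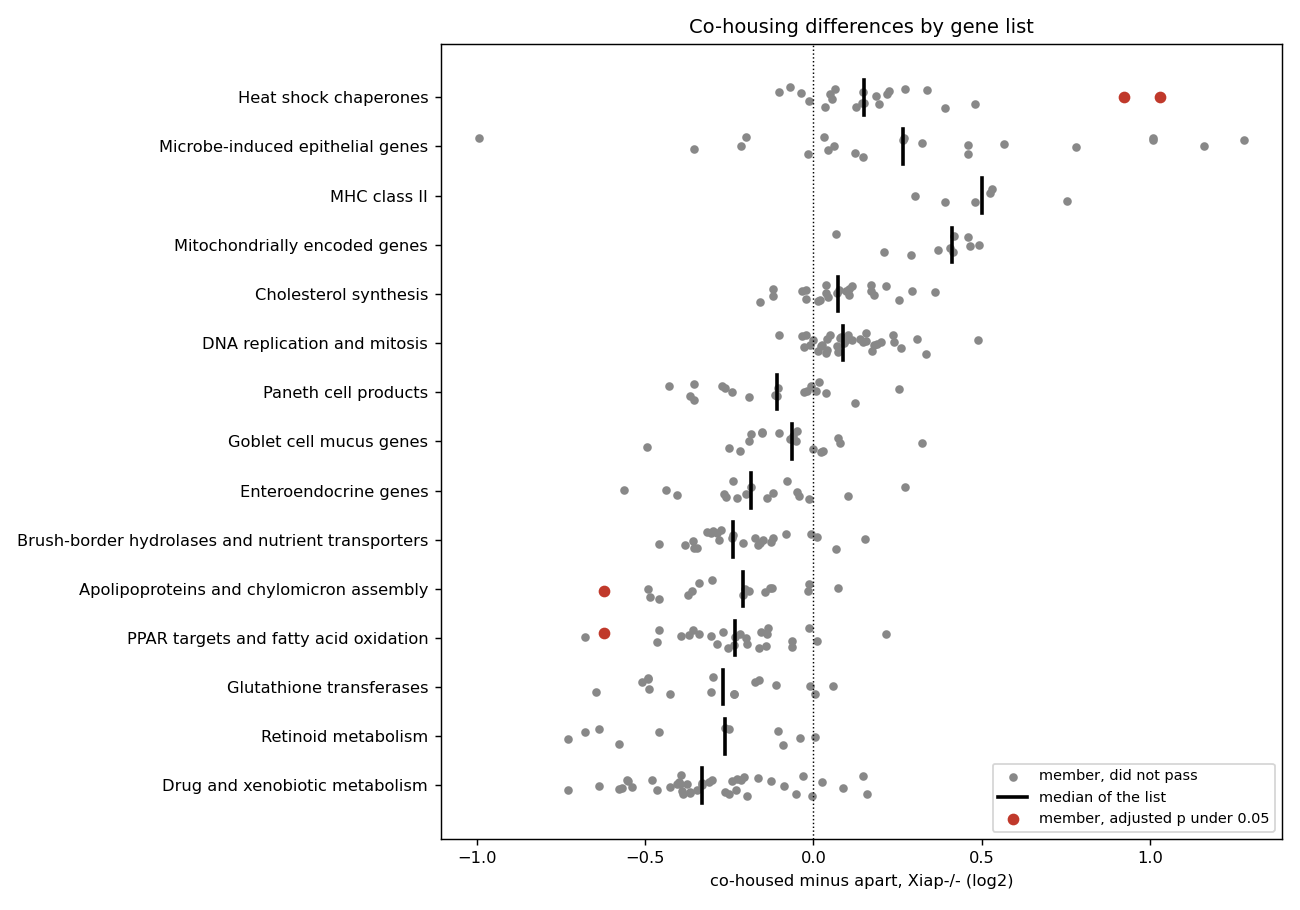
Co-housed minus housed-apart difference in Xiap-/- mice (x axis, log2) of the tested members of 15 gene lists, with 1 point per gene, red where the adjusted p was under 0.05, and a black bar at the median of the list. Medians run from -0.331 for drug and xenobiotic metabolism to 0.503 for MHC class II, and Cd36 appears in both of its lists.

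Crypt products were abundant, and so were transcripts of absorptive cells. Most T cell markers were over the minimum, while those of other tissues were scarce. Defa24 had a mean of 14.17 over the 20 libraries and the goblet cell product Zg16 one of 12.80. Apolipoprotein and chylomicron genes of absorptive cells had a summed level of 15.34 to 15.67 in co-housed and 15.50 to 16.02 in housed-apart Xiap-/- mice, near that of the Paneth cell products, at 15.36 to 16.07 and 15.72 to 16.08 in the same groups. Of 25 markers of intraepithelial T cells 20 were over the minimum, with a summed level of 10.21 to 11.23 in co-housed and 10.56 to 11.35 in housed-apart Xiap-/- mice, and 0 passed. Of hepatocyte markers 1 was over the minimum (Ttr, 4.11), of stromal and of blood markers 1 each, and of glial and neuronal markers 0. The labels' text on RNA extraction speaks of liver, against which these levels stand. Ttr lay at 4.12 ± 0.14 (SD, n = 5) in co-housed and 4.41 ± 0.10 (SD, n = 4) in housed-apart Xiap-/- mice, a difference of -0.29 ± 0.10 that did not pass (adjusted p = 0.253).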

How the data were processed

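Bulk 3' sequencing of poly(A) RNA with unique molecular identifiers was done on small intestinal crypts, per the labels' protocols. The authors deposited normalized values on a log2 scale for 23020 genes in 20 libraries, from -3.88 to 16.3. DESeq2 1.18.1 and build GRCm38.p6 were used, per the submitters' processing notes, and the transformation is not given in the sources used here. Read counts are not in these values, so depth is unknown and intervals from counting cannot be given. A transformation of this kind can shrink differences of lowly expressed genes, which was not tested.

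The log2 values were analysed as deposited, with no pseudocount, using limma 3.58.1 under R 4.3.3. Genes with a mean of log2 of 10 or more in the 20 libraries were tested. A model of 4 group means was fitted to all 20 libraries (trend and robust moderation, 16 residual degrees of freedom), with two-sided tests and Benjamini-Hochberg adjustment over all 9521 tested genes at 0.05. Differences are co-housed minus housed apart with standard errors from the model. Xiap and the depth measure (share of 1854 genes with a mean below -3 that stood 0.015 over their median across libraries) were compared by exact permutation tests, two-sided. Groups come from the sample titles, and no 2 libraries were identical. The members, the 49 gene lists and the rule for naming genes were chosen with earlier results of these data known. Named are the 15 largest rises and falls that passed, up to 4 passing members of each list or otherwise the 2 with the highest mean, genes past the threshold for the difference between genotypes, and 11 genes set by name. Some of these are not used here, and any further gene is said to have been chosen after its values were seen. Positions come from GENCODE M21, in which 97.8% of tested symbols were found, and 24 date-like gene names are not used. Whether counting used strand is not given in the sources used here. Alternatives were other filters, scalings, models, a replicate block, a depth covariate and each library left out.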

Additional observations from a re-analysis of the deposited data

Results flagged for a closer look

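Hspa1b had a housing effect that differed between the genotypes by a test of that difference, at 1.10 ± 0.17 (SE, adjusted p = 0.00254 in limma). It stood at 1.03 in Xiap-/- mice and at -0.06 in wild-type mice. Its mean over the other 15 libraries, 3.27, was under the minimum of 3.32, so it was tested only because of the co-housed Xiap-/- mice, in which it was high.

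Of 160 sets of 4 or 5 values of the named genes, 13 held a library that stood far from the others by Dixon's criterion, where chance gives about 1 in 20. Among co-housed Xiap-/- mice, replicate 2 had Errfi1 at 4.80 (others 5.14 to 5.27), replicate 3 had Anpep, a brush-border peptidase, at 11.07 (others 10.66 to 10.74), and replicate 4 had Lyz1 at 11.69 (others 12.09 to 12.24). Replicate 5 had the glutathione transferase Gstm3 at 10.73 (others 9.91 to 10.12) and Pigr at 12.48 (others 12.66 to 12.71). Among housed-apart Xiap-/- mice, replicate 2 had Sfn at 7.62 (others 7.82 to 7.86), Reg4 at 8.75 (others 8.37 to 8.41), Gstm3 at 10.10 (others 10.79 to 10.93), Duoxa2 at 4.34 (others 4.71 to 4.78) and catalase, Cat, at 8.49 (others 8.28 to 8.31), the last chosen after its values were seen. Replicate 3 had Reg3b at 12.59 (others 11.91 to 12.02), the glutathione transferase Gsto1 at 10.63 (others 10.27 to 10.31) and Cyp2j6 at 8.42 (others 8.30 to 8.32). Replicate 2 was also the housed-apart library with the highest share of rare genes above their plateau, 32.1%.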

How the results depend on the processing

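The count of 14 genes (5 higher, 9 lower) was 169 (70, 99) with only the Xiap-/- groups, 23 (8, 15) with no variance trend, 224 (104, 120) with array quality weights, 8 (4, 4) with a minimum mean of log2 of 50, 19 (5, 14) with no filter and 1 (1, 0) with the depth covariate. With each library left out it ran from 2 to 64 (higher 2 to 21, lower 0 to 43). Median-centring gave 13 and quantile normalization 16. With no filter 12 of the 14 were shared, and with the higher minimum 7, since the other 7 were not tested. The difference between genotypes, passed by 1 gene, was passed by 0 with the higher minimum, where Hspa1b was not tested, and by 4 with array weights. Leaving libraries out, the Xiap difference ran from 0.165 to 0.32 and the depth share difference from -10.8 to -3.31. The depth share differed by -10.8 (exact permutation p = 0.0357, against 0.0536 to 0.25 without any other library) without housed-apart replicate 3. Signs turned for Defa24 (0.0122 with the block, -0.0900 to 0.0906 with a library left out) and for Mmp7 (0.0294 with quantile normalization, 0.0255 with the block, 0.0674 with the depth covariate, -0.111 to 0.0591 with a library left out). The cause was not tested.

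Whether replicate numbers pair the samples cannot be decided from 4 correlations. Same-numbered Xiap-/- samples correlated at -0.000333, 0.216, 0.204 and -0.0641, and the best match had the same number in 2 of 4. With the replicate block 189 genes passed (60 higher, 129 lower), all 14 among them, and 10 passed the difference between genotypes.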
